A study of Mus musculus with 4 samples.

Results

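The genes described here belong to the p53 pathway and to the repair of damaged DNA, and they were measured in mouse testes after busulfan. The 40 listed genes cover p53 (Trp53) and its inhibitors, targets of p53, excision repair, the Fanconi pathway, checkpoint kinases, and enzymes of damage reversal or bypass. The list was chosen with earlier results of these data known. Its genes were taken by name from probe sets that carry a single gene symbol, and 37 of them could be followed among 19938 genes in all. Each of the 37 has 1 such probe set. Trp53, Bax and Cdkn1a are not analysed here.

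The samples were testes of male mice, 2 labelled Lhcgr KO and 2 labelled control WT. Lhcgr encodes the receptor for luteinizing hormone, the pituitary signal that makes Leydig cells produce testosterone. Both genotypes received busulfan at 44 mg/kg and were killed 4 weeks later, so the controls carry the drug as well. There is no group without busulfan among these samples, and the response to the drug itself cannot be read from them. The labels state neither strain, age nor how the Lhcgr allele was made. They also do not state that replicates are separate animals, so the p-values cover sample-to-sample spread that may be technical. RNA was read on 1-colour Affymetrix whole-transcript arrays. With so few arrays, the precision is limited by their number.

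Busulfan is an alkylating drug that joins bases of DNA, including bases of opposite strands. Such crosslinks block replication forks, which activates the kinases ATR and ATM and their partners CHK1 and CHK2. The Fanconi proteins then unhook the crosslink, translesion polymerases copy past the remnant, and homologous recombination with BRCA1 and BRCA2 mends the break. p53, held in check by MDM2 and MDM4, is stabilised by these kinases and switches on genes of cell cycle arrest, antioxidant defence and cell death. In the testis the drug kills dividing germ cells, and the somatic Sertoli, Leydig and peritubular cells survive.

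The arrays had median intensities between 198 and 215 and the same lowest value of 16, and 6 of the 37 genes lay in the lowest 25% of genes by mean. Sertoli cell markers such as Sox9 and Wt1 were high on all arrays, at 11.35 to 11.68 and 11.44 to 11.63 log2 intensity units, as the labelled tissue would give. Leydig cell markers were lower in the knockout, with 6 of 8 past the test (Hsd3b6, Ces1d, Star, Cyp11a1, Ptgds and Sult1e1), and so were macrophage markers, with 5 of 10 (Folr2, Lyz2, Cd68, Csf1r and C1qb). The summed Leydig level was 11.57 and 11.89 log2 units on the knockout arrays against 13.70 and 14.56 in wild type, and the summed macrophage level 12.08 and 12.16 against 12.93 and 13.22. None of 16 germ cell markers passed, and their summed level was 11.43 to 11.57 in the knockout and 11.34 to 11.80 in wild type. The sum does not show single markers, of which 12 overlapped between genotypes. Id4 and Zbtb16 were lower on both knockout arrays, with log2 fold changes of -0.47 and -1.30. Dazl and Acrv1 were higher on both, with 0.36 and 0.29. In whole tissue, fewer cells of a type and less RNA per cell cannot be told apart, and the part of cell content in the results below was not tested. Wild-type replicate 2 stands apart: 4 of 7 epididymis markers and 5 of 6 epithelial markers exceeded every other array there by over 1 log2 unit. Epcam, an epithelial adhesion gene that was also raised on wild-type replicate 1, was the 1 of 6 epithelial markers lower in the knockout by the test, and no epididymis marker passed. Of the remaining lists, Amh was higher among 9 Sertoli markers and Sox18 among 5 endothelial markers, and none of 5 peritubular markers passed. Over all genes, 3.10% passed the same test.

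The comparison asks whether loss of the receptor leaves the damage response genes at another level in the busulfan-treated testis. Brca1, which guides homologous recombination, and Polk, the translesion polymerase kappa, fell in the knockout, and none of the 37 genes rose. The other 35 did not pass the test, which was limma on log2 intensities with Benjamini-Hochberg adjustment over all 19938 genes and a threshold of 0.05. In the same test 3.10% of all genes passed, made up of 0.963% that were higher and 2.14% that were lower, against 5.41% of the members. With so few members past the threshold, this share is near the background and says little about the set. Neither call stands without knockout replicate 1, without knockout replicate 2 or without wild-type replicate 2. A fit with 1 array left in a group takes its spread from the other group, so it cannot decide whether a call holds. With single arrays left out, the log2 fold change ran from -0.83 to -0.65 for Brca1 and from -0.61 to -0.54 for Polk.

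Small differences leaned downward. In 27 of the 37 genes, or 73%, the knockout mean was below wild type, as it was in 39.4% of all genes; after quantile normalization it was 26 genes and after centring 28. The median log2 fold change, knockout over wild type, was -0.14 for the members and 0.07 for all genes, and it ran from -0.19 to -0.08 for the members when single arrays were left out. The all-gene value depends on weak genes. With the weaker 25% of genes removed the medians were -0.15 for the members and 0.02 for all genes. With the weaker 50% removed they were -0.15 and -0.04, so the distance between them was smaller. The knockout arrays lay on one side of both wild-type arrays in 24 genes, 19 below and 5 above, which is 64.9% against 59.2% of all genes. An unadjusted p under 0.05 was found for 13 genes, 2 higher and 11 lower, or 35.1% against 22.7% of all genes. For 35 of the 37 genes the 95% confidence interval of the single gene lay within 1 log2 unit of no change on either side, the exceptions being Brca1 and Perp. These are descriptions of a list that was chosen with earlier results of these data known.

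**Figure D1:**
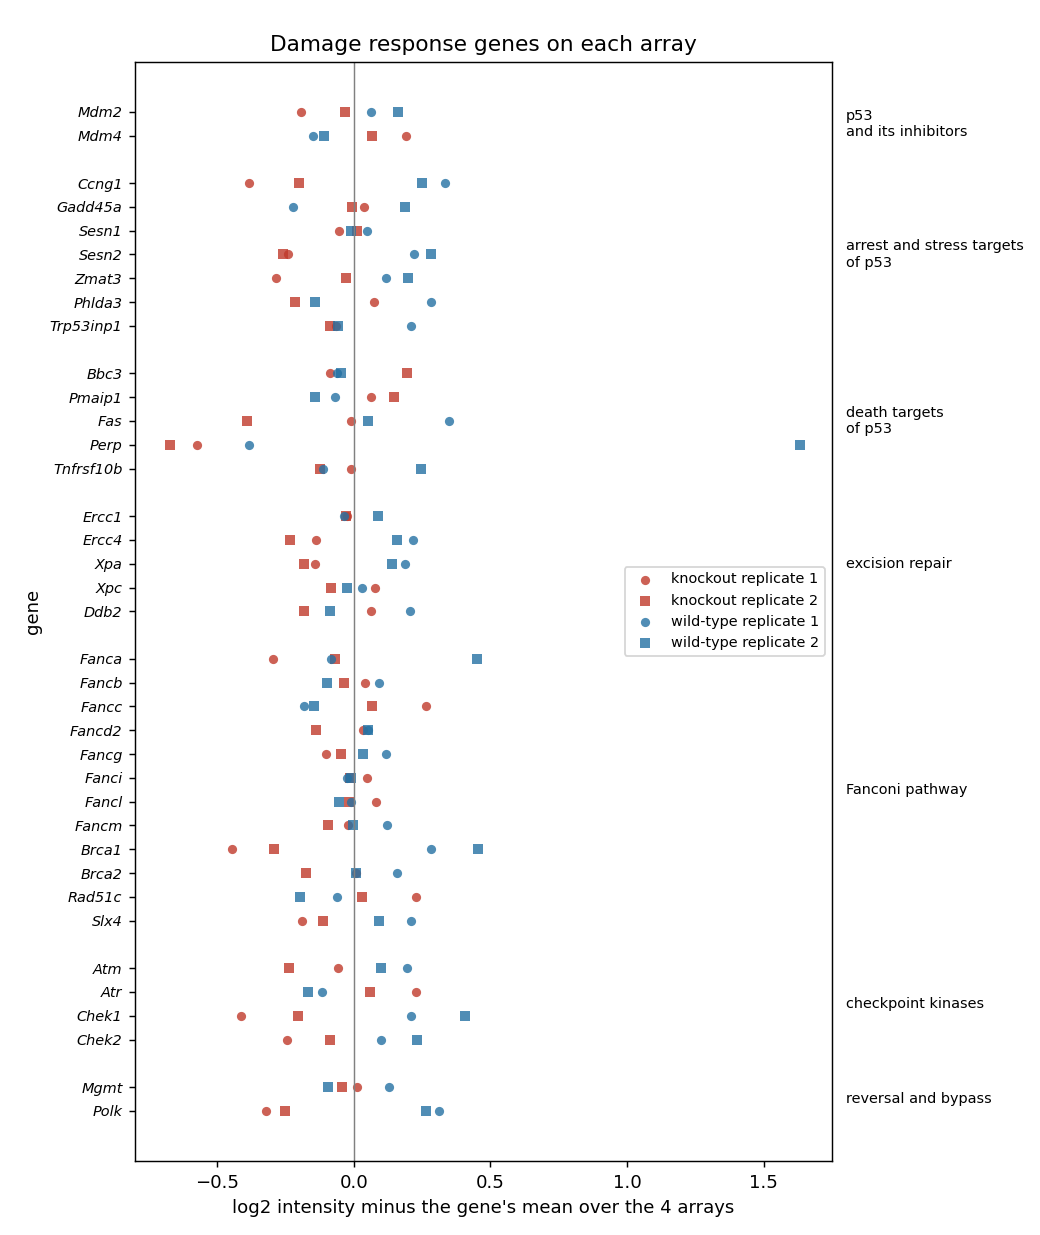
Each row is a gene and each point an array, placed at its log2 intensity minus the gene's mean over the 4 arrays (red for knockout, blue for wild type). Most points lie within 0.5 units of the mean, and Perp on wild-type replicate 2 is the point farthest from it.

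**Figure D2:**
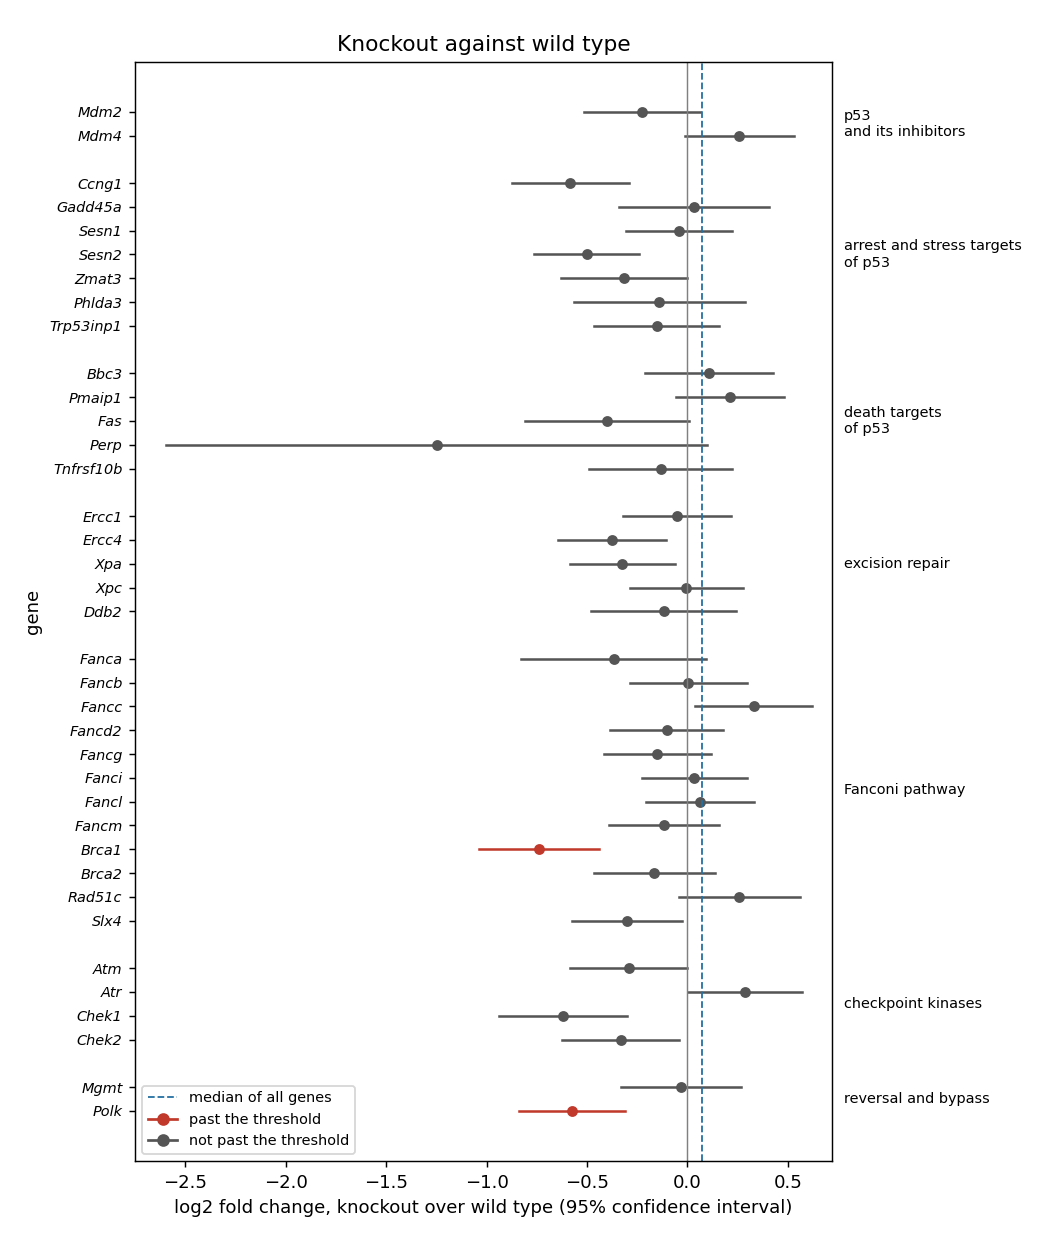
Points give the log2 fold change, knockout over wild type, and bars its 95% confidence interval from limma with 2 arrays per group. Brca1 and Polk, in red, passed the threshold, and the dashed line marks the median of all genes at 0.07.

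The promoters of the genes that passed are shown with that of Ccng1, a p53 target just outside the threshold that was added after its values were seen. The windows are RefSeq sequences of GRCm38.p6, from 250 bases before to 50 after a transcription start, on the strand of the gene, which is the minus strand for all 3. They lie at chr11:101551906-101552205 for Brca1, chr13:96542530-96542829 for the upstream start of Polk and chr11:40755237-40755536 for Ccng1. Capitals mark matches on either strand to CCAAT or to the p53 decamer, the ten-letter unit that p53 binds in pairs.
Brca1: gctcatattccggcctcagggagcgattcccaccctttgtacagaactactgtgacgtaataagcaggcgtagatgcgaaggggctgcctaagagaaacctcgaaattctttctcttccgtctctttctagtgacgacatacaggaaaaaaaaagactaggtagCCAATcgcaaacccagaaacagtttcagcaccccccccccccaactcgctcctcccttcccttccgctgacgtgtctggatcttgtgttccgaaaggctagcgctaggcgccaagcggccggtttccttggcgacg
Polk: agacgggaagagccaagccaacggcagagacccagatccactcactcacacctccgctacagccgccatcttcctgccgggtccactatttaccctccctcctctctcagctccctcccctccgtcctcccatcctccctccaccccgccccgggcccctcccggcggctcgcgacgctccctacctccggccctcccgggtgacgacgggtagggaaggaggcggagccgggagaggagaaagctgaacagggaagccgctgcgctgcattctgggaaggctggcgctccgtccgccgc
Ccng1: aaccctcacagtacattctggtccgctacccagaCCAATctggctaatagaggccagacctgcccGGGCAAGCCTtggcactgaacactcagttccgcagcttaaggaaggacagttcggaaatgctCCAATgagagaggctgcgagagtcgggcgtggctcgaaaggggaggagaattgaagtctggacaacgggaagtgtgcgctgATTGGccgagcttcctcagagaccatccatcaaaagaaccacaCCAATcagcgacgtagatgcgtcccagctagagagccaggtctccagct
The Brca1 window holds CCAAT at a single place and the Ccng1 window at 4 places. The Ccng1 window also holds a p53 decamer, at positions -185 to -176 with the start at 0. The Polk window shown, that of the upstream start, holds none of the motifs searched. The window of the downstream start of Polk, whose letters are not shown, holds a p53 decamer at positions -231 to -222.

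Windows were found for 29 of the 37 genes. A p53 decamer was present for 7 of these, or 24.1%, namely Ccng1, Fanca, Fancg, Gadd45a, Mdm2, Polk at its downstream start, and Sesn1, against 8.56% of 15614 genes on the array with a window. TTTNNCGC, a core bound by E2F factors of the cell cycle, was present for Brca2, Chek2, Fancg, Fas, Mdm2 and Rad51c, or 20.7% against 7.55%. CCAAT was present for 55.2% against 41.7%, and TTTGAA, found in many promoters of mitotic genes, for Fas alone, or 3.45% against 17.3%. The motifs were searched on both strands, matches of different motifs may overlap, and a match is a description of the letters and not of binding.

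Neither inhibitor of p53 passed the test, though the groups were separate for both, as they were in 59.2% of all genes. Mdm2, the ubiquitin ligase that degrades p53 and is itself a p53 target, measured 9.5 and 9.66 log2 intensity units on the knockout arrays and 9.75 and 9.85 on the wild-type arrays. Both knockout values were lower, but the difference of -0.23 ± 0.12 (SE, 2 arrays per group) did not pass (adjusted p = 0.298), and its interval of -0.51 to 0.06 includes no change. Mdm4, which blocks the activation domain of p53, was on the other side, with a log2 fold change of 0.26 ± 0.11 (adjusted p = 0.235).

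Among the targets that act in arrest and stress defence, none of 7 passed the test, and 6 had a negative log2 fold change, of which Sesn1 turned positive after quantile normalization. Ccng1, cyclin G1, a direct p53 target that recruits protein phosphatase 2A to MDM2, measured 10.39 and 10.57 log2 units in the knockout and 11.11 and 11.02 in wild type. The 4 values form separate groups, with a log2 fold change of -0.58 ± 0.12 and a 95% confidence interval of -0.87 to -0.29 (unadjusted p = 0.00224, adjusted p = 0.0615). Sesn2, sestrin 2, which restrains mTORC1 under stress, measured 10.31 and 10.29 in the knockout and 10.77 and 10.84 in wild type. Its groups are apart by much more than the gap within either pair, with a log2 fold change of -0.50 ± 0.11 (adjusted p = 0.0696). Both genes passed when the weaker 50% of genes were removed (adjusted p = 0.0421 and 0.0425), with a trended prior (0.0315 and 0.0349) and with 32 added to the intensities (0.0386 and 0.0413). Over the alternatives run, the adjusted p went from 0.0315 to 0.216 for Ccng1 and from 0.0349 to 0.288 for Sesn2.

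Zmat3, an RNA-binding splicing regulator, measured 6.66 and 6.92 log2 units in the knockout and 7.06 and 7.15 in wild type. Its groups are apart by less than the gap between the knockout arrays, with a log2 fold change of -0.32 ± 0.13 (adjusted p = 0.217). The paralog Sesn1 differed from Sesn2, with values of 10.67 and 10.74 in the knockout and 10.77 and 10.71 in wild type, which overlap (log2 fold change -0.04 ± 0.11); a difference between the paralogs was not tested. Gadd45a, a stress gene that interacts with PCNA, Phlda3, which competes with AKT for membrane lipid, and Trp53inp1, an autophagy and p53 cofactor gene, had log2 fold changes of 0.03, -0.14 and -0.15. The wild-type arrays themselves differed by 0.41 for Gadd45a, -0.43 for Phlda3 and -0.27 for Trp53inp1, replicate 2 minus replicate 1, each more than the difference between genotypes.

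Among the targets that drive cell death, none of 5 passed. Bbc3 (PUMA) and Pmaip1 (NOXA), which free BAX and BAK from their inhibitors, had log2 fold changes of 0.11 ± 0.13 and 0.21 ± 0.11 (adjusted p = 0.626 and 0.297). For Pmaip1 both knockout arrays, at 6.69 and 6.77, were above both wild-type arrays, at 6.56 and 6.48. The death receptor Fas measured 7.54 and 7.16 in the knockout and 7.90 and 7.60 in wild type, with a log2 fold change of -0.40 ± 0.17 (adjusted p = 0.226). The death receptor Tnfrsf10b overlapped between genotypes, with a log2 fold change of -0.13 ± 0.15.

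Perp, a p53 target that is also a desmosome component of epithelia, had the largest difference of the members, and a single array made it. It measured 6.67 and 6.57 log2 units in the knockout, 6.86 on wild-type replicate 1 and 8.87 on wild-type replicate 2. The log2 fold change of -1.25 ± 0.56 did not pass (adjusted p = 0.242). Without wild-type replicate 2 it was -0.24 (adjusted p = 0.535), and without wild-type replicate 1 it was -2.26 (adjusted p = 7.24e-05). On the same array the epithelial genes Cdh1, Krt8 and Krt18 measured 10.21, 10.21 and 9.53, against at most 7.25, 7.77 and 7.54 elsewhere. The epididymal gene Adam7 measured 11.04 there and at most 5.92 elsewhere. Summed over the list, epithelial markers stood at 12.06 on this array and at 9.91 to 10.01 on the others, and epididymis markers at 12.17 against 9.25 to 9.59. Their part in the Perp value was not tested.

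**Figure D3:**
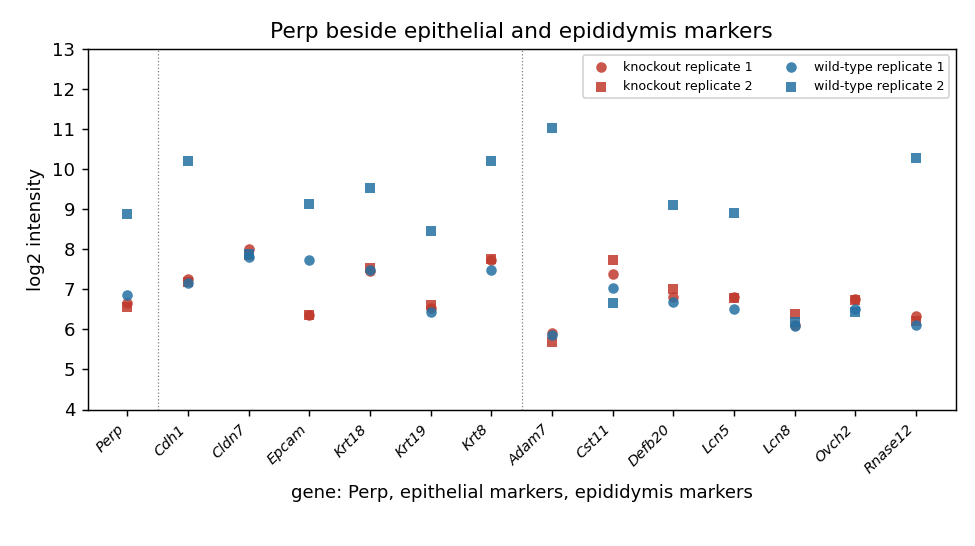
Log2 intensities of Perp, 6 epithelial markers and 7 epididymis markers on the 4 arrays, with squares for replicate 2 and circles for replicate 1. Perp at 8.87 on wild-type replicate 2 is high together with Cdh1, Epcam, Krt8, Krt18, Krt19, Adam7, Rnase12, Defb20 and Lcn5, while Cldn7, Cst11, Lcn8 and Ovch2 are not.

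Excision repair removes bulky lesions and supplies the nuclease that cuts beside a crosslink. All 5 members had negative log2 fold changes, from -0.37 to -0.01, of which Ercc1 and Xpc turned positive after quantile normalization, and none passed. Ercc4 (XPF), the catalytic subunit of that nuclease, measured 7.56 and 7.46 in the knockout and 7.91 and 7.85 in wild type. Its values form separate groups, with a log2 fold change of -0.37 ± 0.11 (adjusted p = 0.136). Its obligate partner Ercc1 overlapped between genotypes, with a log2 fold change of -0.05 ± 0.11 and an interval of -0.32 to 0.22. Xpa, the scaffold that verifies damage, measured 9.04 and 9.0 against 9.37 and 9.32, which are also separate (log2 fold change -0.32 ± 0.11, adjusted p = 0.163). The damage sensors Xpc and Ddb2 overlapped, with log2 fold changes of -0.01 ± 0.12 and -0.12 ± 0.15.

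In the Fanconi pathway 1 of 12 members fell and 11 did not pass. That is 8.33% against 3.10% of all genes, a share that rests on Brca1 alone. Brca1 (probe set 10391461), also known as Fancs, measured 6.49 and 6.64 log2 units in the knockout and 7.22 and 7.39 in wild type. The groups were apart by more than the gap within either pair. Its mean was 6.56 ± 0.11 (SD, n = 2) against 7.30 ± 0.12, which is a difference of -0.74 ± 0.13 on the log2 scale (SE, adjusted p = 0.0328), or 1.67-fold lower with a 95% confidence interval of 1.36 to 2.06. Over the alternatives the adjusted p went from 0.0178 to 0.194. It was 0.194 without knockout replicate 1, 0.177 without knockout replicate 2 and 0.076 without wild-type replicate 2, and 0.0224 without wild-type replicate 1. With the weaker 50% of genes removed, Brca1 was itself among those removed.

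Brca2, which acts in homologous recombination, did not pass (log2 fold change -0.17 ± 0.13, adjusted p = 0.432). Slx4 (Fancp), the scaffold of the crosslink nucleases, measured 7.85 and 7.93 in the knockout and 8.25 and 8.13 in wild type. Both knockout values were lower, with a log2 fold change of -0.30 ± 0.11 (adjusted p = 0.197). Fancc, a core complex subunit, was on the other side, at 7.76 and 7.56 against 7.31 and 7.35 (log2 fold change 0.33 ± 0.12, adjusted p = 0.188), as was the recombination gene Rad51c (0.26 ± 0.13, adjusted p = 0.267).

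The remaining Fanconi genes did not pass. The core subunits Fancb and Fancg had log2 fold changes of 0.004 and -0.15, the ubiquitin ligase Fancl one of 0.06, and the translocase Fancm one of -0.12. Fancd2 and Fanci, the pair that the ligase ubiquitinates, had -0.10 ± 0.12 and 0.03 ± 0.11. For Fancb, Fancd2, Fancg, Fanci, Fancl and Fancm the adjusted p lay between 0.421 and 0.987. Fanca, another core subunit, was the second member that stood out on wild-type replicate 2, at 8.25 there and between 7.5 and 7.73 elsewhere. Its log2 fold change of -0.37 ± 0.19 (adjusted p = 0.293) was -0.10 without that array and -0.63 without wild-type replicate 1.

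All 4 checkpoint kinases had separate groups, as 59.2% of all genes did, and unadjusted p-values of 0.00275 to 0.0486, where 22.7% of all genes lay under 0.05. None passed after adjustment. Chek1, the kinase that ATR activates at stalled forks, measured 6.35 and 6.55 in the knockout and 6.97 and 7.17 in wild type. The gap between the groups exceeds that within them, with a log2 fold change of -0.62 ± 0.13 and a 95% confidence interval of -0.94 to -0.30 (adjusted p = 0.0681). It passed after quantile normalization (adjusted p = 0.0468), with a robust prior (0.0439) and without wild-type replicate 1 (0.0449), and it was not tested where weak genes were removed; its adjusted p reached 0.221 over the remaining alternatives. Chek2, the kinase downstream of ATM, measured 6.48 and 6.63 against 6.82 and 6.95 (log2 fold change -0.33 ± 0.12, adjusted p = 0.188). Atm, which senses double-strand breaks, measured 8.01 and 7.83 in the knockout and 8.26 and 8.16 in wild type, lower on both knockout arrays (-0.29 ± 0.12, adjusted p = 0.218). Atr, which senses single-stranded DNA, went the other way, at 9.39 and 9.22 against 9.05 and 9.0 (0.29 ± 0.12, adjusted p = 0.218).

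Of the enzymes that reverse or bypass damage, Polk fell. Polk (probe set 10411306) measured 8.22 and 8.29 log2 units in the knockout and 8.85 and 8.80 in wild type, so that the groups were apart by several times the gap within them. Its mean was 8.25 ± 0.05 (SD, n = 2) against 8.83 ± 0.03, which is a difference of -0.57 ± 0.11 on the log2 scale (SE, adjusted p = 0.0484), or 1.49-fold lower with a 95% confidence interval of 1.24 to 1.79. The call was lost under quantile normalization (adjusted p = 0.0748), with 15 subtracted from the intensities (0.0726), with the replicate number as a block (0.0778) or without any one of the 4 arrays (0.0934 to 0.223). Mgmt, which takes alkyl groups off guanine, overlapped between genotypes, at 7.22 and 7.17 against 7.34 and 7.11, with a log2 fold change of -0.03 ± 0.12 and an interval of -0.33 to 0.27.

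**Figure D4:**
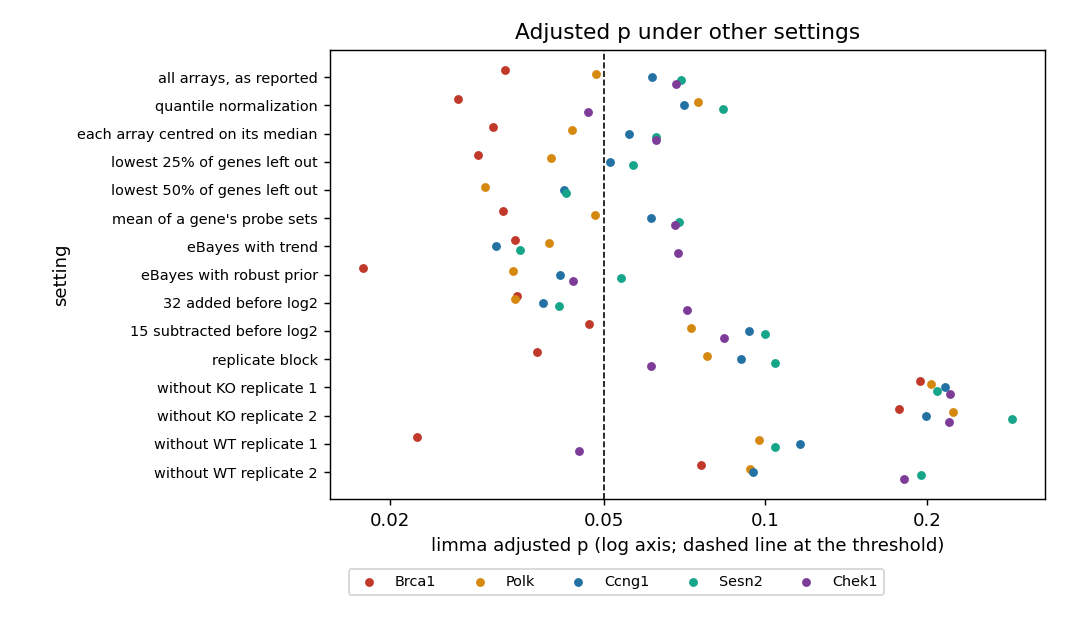
Limma adjusted p of the 5 members nearest the threshold under each setting, on a log axis with the threshold of 0.05 dashed. Brca1 lies left of the line in most settings and Polk on both sides, and when a knockout array is left out all 5 lie between 0.177 and 0.288.

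Other genes of the pathway were read from lists written with earlier results of these data known. Among 19 other p53 targets, 3 fell, none rose and 16 did not pass, which is 15.8% against 3.10% of all genes, with a median log2 fold change of -0.18. Dram1, a lysosomal gene of autophagy, measured 7.92 and 8.51 in the knockout and 9.52 and 9.5 in wild type (log2 fold change -1.30 ± 0.19, adjusted p = 0.0229). The polo-like kinase Plk2 differed by -1.04 ± 0.15 log2 units (adjusted p = 0.0190), and Tigar, a fructose bisphosphatase that lowers glycolytic flux, by -1.0 ± 0.13 (adjusted p = 0.0149). All 3 passed with either wild-type array left out and none passed when a knockout array was left out. Of the 19 genes, 14 had a negative log2 fold change, or 73.7% against 39.4% of all genes. The groups were separate in 13, or 68.4% against 59.2% of all genes, 12 of them lower in the knockout and 1 higher. Ppm1d, Rrm2b and Apaf1, named after their values were seen, overlapped between genotypes, with log2 fold changes of 0.06, 0.08 and -0.05.

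Among 25 other genes of crosslink and excision repair, 2 fell, none rose and 23 did not pass. That is 8.0% against 3.10% of all genes, and with 2 genes the share says little about the list. The median was 0.07, as over all genes to that precision. The helicase Ercc2 (XPD) measured 8.72 and 8.84 in the knockout and 9.99 and 9.64 in wild type (log2 fold change -1.04 ± 0.15, adjusted p = 0.0203). Faap24, a partner of FANCM, differed by -0.68 ± 0.12 log2 units (adjusted p = 0.0396). Without a knockout array neither passed, and Faap24 did not without wild-type replicate 1 (adjusted p = 0.0758) or with 15 subtracted from the intensities (0.0609).

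Among 29 other checkpoint and break repair genes, 2 fell, none rose and 27 did not pass, with a median of -0.06. The share past the test was 6.90% against 3.10% of all genes, and with 2 genes it says little about the list. Exo1, the exonuclease that resects breaks and acts in mismatch repair, measured 6.04 and 6.15 in the knockout and 8.71 and 8.75 in wild type. The groups are far apart, differing by -2.63 ± 0.11 log2 units (adjusted p = 0.000598), and Exo1 alone among the called genes of the 4 pathway lists and the members passed when any 1 array was left out, with adjusted p from 2.47e-05 to 0.039. H2ax, the histone phosphorylated beside breaks, differed by -0.66 ± 0.12 log2 units (adjusted p = 0.0359) and did not pass without any one array (0.0608 to 0.234), with the replicate number as a block (0.0514) or with 15 subtracted (0.0571).

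The genes of replication and mitosis were read beside Brca1 and Chek1, which cycling cells express. Of 11 measured, Cdk1, the mitotic kinase, fell (log2 fold change -0.97 ± 0.12, adjusted p = 0.0146; 0.118 and 0.152 without knockout replicates 1 and 2). None rose and 10 did not pass. The share past the test was 9.09% against 3.10% of all genes, and it rests on Cdk1 alone. The list had a median of -0.19. Of the 11 genes, 10 had a negative log2 fold change, or 90.9% against 39.4% of all genes. The groups were separate in 5, all lower in the knockout, or 45.5% against 59.2% of all genes. Besides Cdk1 these include Ccne1 and Pcna, with log2 fold changes of -0.36 and -0.33 (limma adjusted p = 0.157 and 0.191). The proliferation markers Mki67 and Top2a overlapped between genotypes, with log2 fold changes of -0.15 and 0.01. The list was highest on wild-type replicate 2, the array with high epithelial and epididymis markers. There 9 of 11 genes had their top value, or 81.8% against 20.6% of all genes. Cdk1 was higher on wild-type replicate 1, at 9.80 against 9.67. The summed level of the list was 11.50 and 11.55 log2 units in the knockout against 11.82 and 11.98 in wild type. The part of cell cycling in the Brca1 and Chek1 values was not tested.

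**Figure D5:**
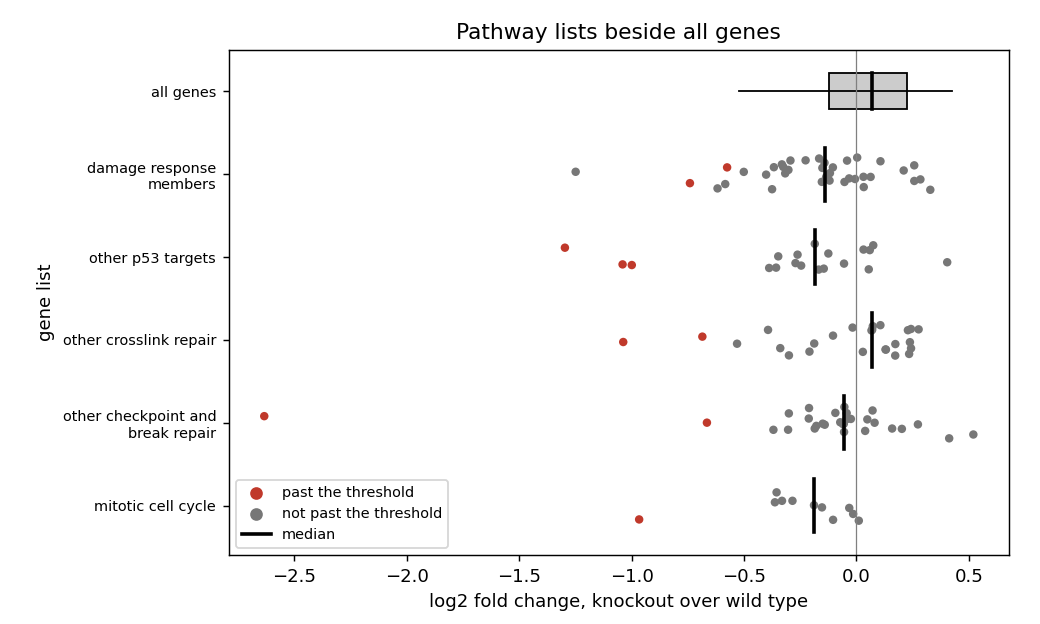
Each point is a gene's log2 fold change, knockout over wild type, in the members and 4 further lists, with black bars for medians and red for genes past the threshold. The grey box for all genes spans the 25th to 75th percentiles and its line the 5th to 95th, and Exo1 at -2.63 is the lowest point.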

How the data were processed

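Gene expression was measured in total RNA of busulfan-treated mouse testes, 2 Lhcgr knockout and 2 wild-type, on 1-colour whole-transcript arrays, per the labels' protocols. The deposited table gives 1 linear intensity per probe set. The build listed in the submitters' processing notes is mm9. How the authors summarized and normalized these intensities is not given in the sources used here. Of 28856 probe sets, 21789 had 1 gene symbol and entered as 19938 genes, the probe set with the highest mean being used where a gene had several. Probe sets with several symbols (1621) or none listed (5446) were left out.

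Intensities were taken to log2 and compared across all genes with limma 3.58.1 in R 4.3.3 (lmFit, eBayes, no covariates), with two-sided p-values, Benjamini-Hochberg adjustment over the 19938 genes and a threshold of 0.05. The prior had 4.65 degrees of freedom. An exact permutation test of 2 against 2 arrays cannot reach 0.05 and was not used. The same limma test was run separately on data simulated under its own assumptions, so that run does not check those assumptions on these arrays. Members, lists and rules were chosen with earlier results of these data known. All members are named, with values on every array for those past the threshold, differing by at least 0.5, or with separate groups and unadjusted p under 0.05, and for preset genes of interest. From other lists the genes past the threshold are named, and further ones after their values were seen. Promoters are from RefSeq, GRCm38.p6, and were used for their letters alone.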

Additional observations from a re-analysis of the deposited data

How the results depend on the processing

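The counts of calls, the members' median and the fold changes of the members and of the called genes in the 4 pathway lists were recomputed under 14 alternatives, or 12 or 13 for genes that a filter on weak genes removed. Other counts, list medians and motif shares were not recomputed. The number of members past the threshold, 2 with all arrays, was 4 with a trended prior, 4 with a robust prior and 4 with 32 added before log2, or 10.8% each, where 3.91%, 4.04% and 3.71% of all genes passed. With the weaker 50% of genes removed it was 3 of 19, or 15.8% against 6.1%. It was 1 with 15 subtracted before log2 and 1 with the replicate number as a block, and between 0 and 3 when single arrays were left out. None of the called members was higher in the knockout under any alternative. The number of all genes past the threshold, 618, was 389 with 15 subtracted and 18 to 1039 when single arrays were left out, 18 and 23 of these without knockout replicates 1 and 2. A group with 1 array left was assumed to vary like the other group. The members' median of -0.14 ranged from -0.188 to -0.0766 when single arrays were left out.

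Same-numbered arrays did not deviate together (correlation of deviations from the group means 0.021 over all genes), so the replicate numbers were not taken as pairs. The replicate block gave 572 genes in all and took Polk from the members past the threshold.

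Of the 37 members, 11 changed sign under some alternative, none of them past the threshold under any. After quantile normalization the log2 fold change was 0.0105 for Sesn1, 0.0252 for Ercc1, 0.001 for Xpc, -0.1028 for Fancb and -0.101 for Fanci, and after centring each array on its median it was -0.0144 for Fancb. When single arrays were left out it ran from -0.1729 to 0.2369 for Gadd45a, from -0.3545 to 0.0716 for Phlda3, from -0.0331 to 0.2484 for Bbc3, from -0.3122 to 0.0444 for Tnfrsf10b, from -0.1143 to 0.0093 for Ercc1. It ran from -0.0868 to 0.0754 for Xpc, from -0.2655 to 0.0276 for Ddb2, from -0.0903 to 0.0983 for Fancb and from -0.1432 to 0.0796 for Mgmt. The cause of these shifts was not tested.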

Other observations

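In RefSeq (GRCm38.p6) Nbr1 is the neighbour of Brca1 and Cert1 that of Polk, and both were looked up after the values of Brca1 and Polk were seen. Nbr1, an autophagy receptor gene, measured 10.40 and 10.26 log2 units in the knockout and 10.37 and 10.30 in wild type, which overlap (log2 fold change -0.01 ± 0.12). Cert1, the ceramide transporter, measured 9.27 and 9.19 in the knockout and 9.58 and 9.67 in wild type. Both knockout values were lower, with a log2 fold change of -0.39 ± 0.11 that did not pass (limma adjusted p = 0.125). Whether either pair differs between its partners was not tested.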
